A study of Mus musculus with 6 samples.

Results

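Transcripts of the mitochondrial carriers were measured in mouse tumour organoids with and without a knockout of GATA6. The members were all genes of the deposited count table whose mouse symbol is Slc25a followed by a number, together with the uncoupling proteins Ucp1, Ucp2 and Ucp3 and the pyruvate carrier subunits Mpc1 and Mpc2. The rule found 52 of the 54418 genes in the table, and 43 of them passed the filter on low counts. Organoids are self-organising epithelial cultures. Those of both groups are labelled AKP, a name that the labels do not spell out. The 2 groups are labelled Control and GATA6KO, with 3 libraries each. How the knockout was made, and whether the replicates are separate clones or cultures, is not given in the sources used here. The p-values therefore cover the spread of these 6 libraries alone, and that spread may be technical. The series describes organoids from primary tumours and liver metastases that were transplanted again, but the labels tie none of these libraries to a round of transplantation.

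Carriers of the SLC25 family sit in the mitochondrial inner membrane and exchange nucleotides, phosphate, carboxylates, amino acids and cofactors between the cytosol and the matrix. They are encoded in the nucleus and built from repeats of a pair of membrane helices, while the pyruvate carrier is a separate complex of small proteins. In the intestinal epithelium they link glycolysis, fatty acid oxidation and amino acid use to respiration, and they supply the matrix with what it needs to copy its own genome. Uncoupling proteins belong to the same family, and brown fat is known for Ucp1.

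Of the 43 tested carriers, Slc25a36 and Slc25a25 fell and Slc25a32 rose in GATA6KO by edgeR's quasi-likelihood test at an adjusted p under 0.05. Slc25a36, which carries pyrimidine nucleotides, was at 89.3 ± 5.50 CPM in Control against 34.8 ± 7.35 CPM in GATA6KO (SD, n = 3 each). CPM are counts per 1000000 of a library's size after TMM scaling. Slc25a32, which is known as the folate and FAD carrier, measured 26.4 ± 3.31 and 47.2 ± 1.11 CPM. Slc25a25, a calcium-regulated exchanger of ATP-Mg for phosphate, measured 29.2 ± 1.44 and 17.1 ± 1.86 CPM. The other 40 did not pass. Called carriers made up 6.98% of those tested, against 12.4% of all 14714 genes tested (6.92% higher and 5.47% lower). The median log2 fold change was 0.07 over the carriers and 0.02 over all genes. Group values did not overlap for 16 of the 43 carriers (37.2%), and for 40.8% of all genes tested. The median SD of a carrier on the log2 scale was 0.0836 in Control and 0.222 in GATA6KO. At an unadjusted p under 0.05 by edgeR there were 10 carriers, against 31.7% of all genes. DESeq2 called 3 carriers higher and 3 lower, against 11.6% and 10.4% of all genes (22% in either direction), and limma-voom called the same 3 as edgeR, against 12.1%. With scaling to the library total, 2 were called higher and 2 lower, against 8.85% and 4.62%.

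The count of called carriers depended on single libraries. Without GATA6KO replicate 1 it was 4 higher and 8 lower, against 14.8% and 14% of all genes tested in that fit. The carriers gained there were Slc25a17, Slc25a22 and Slc25a27 (higher) and Slc25a1, Slc25a13, Slc25a33, Slc25a37, Slc25a39 and Slc25a43 (lower). Without GATA6KO replicate 2 it was 1 and 5, with Slc25a24, Slc25a28 and Slc25a48 added (all genes 8.59% and 6.91%), and without GATA6KO replicate 3 it was 2 and 2, with Slc25a10 added (7.16% and 4.93%). Without a Control library it was 1 and 1 each time, against 1.68% and 1.11% of all genes without replicate 1, 1.51% and 1.04% without replicate 2, and 1.33% and 0.855% without replicate 3. Slc25a36 and Slc25a32 were called in all 6 of these fits.

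**Figure D1:**
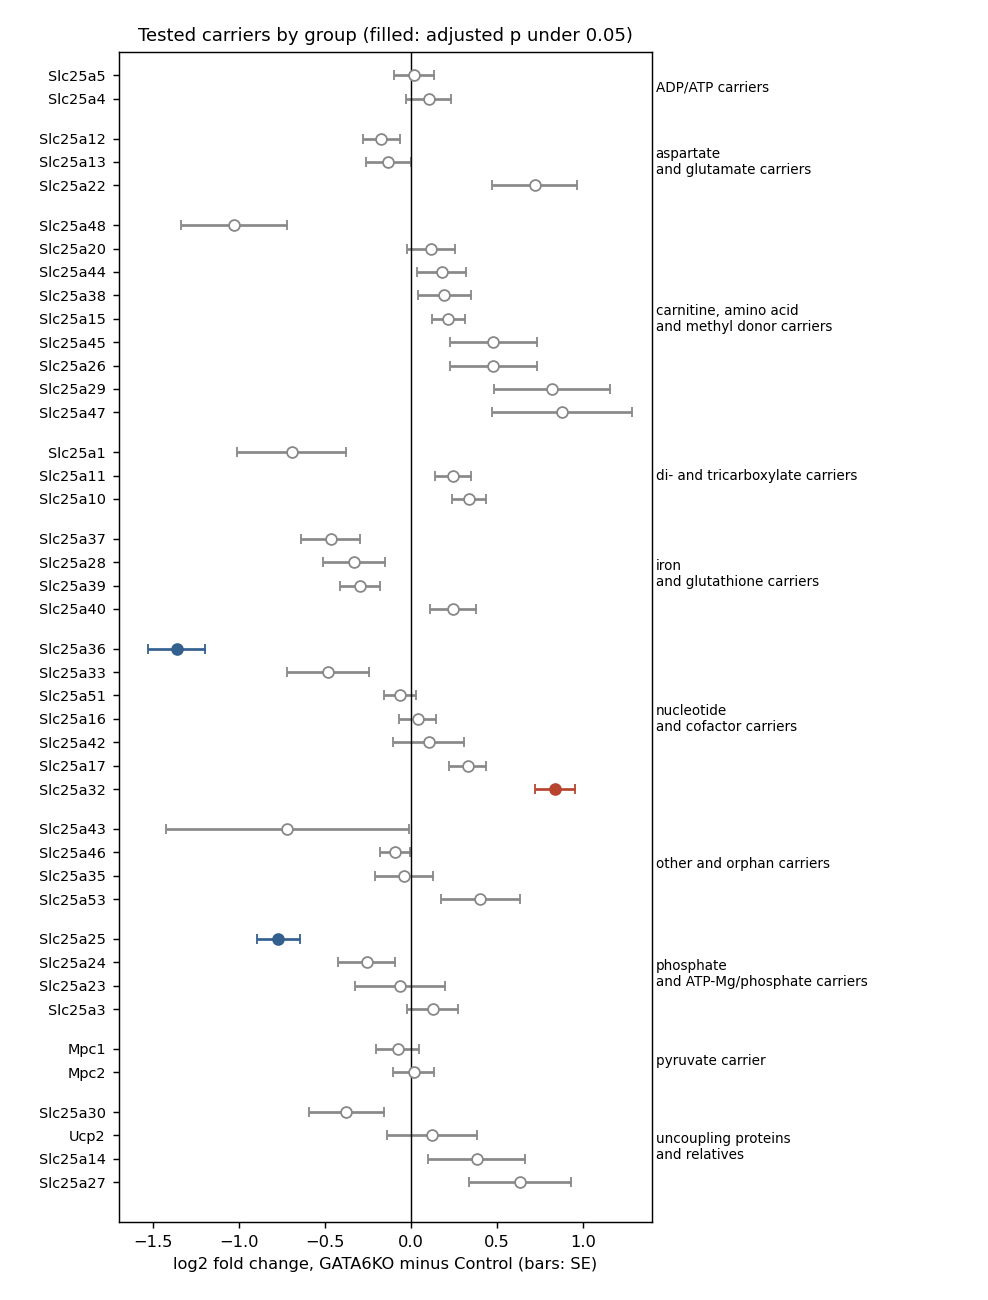
Log2 fold change (GATA6KO minus Control) of 42 of the 43 tested carriers, in 10 groups by what they carry, with bars of 1 SE. Filled points mark the 3 carriers called by edgeR, of which Slc25a36 and Slc25a25 lie left of 0 and Slc25a32 right of it.

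Gata6 had 577, 669 and 840 counts in the Control libraries against 427, 489 and 247 in GATA6KO (log2 fold change -0.99, SE 0.25, edgeR adjusted p = 0.0486). Leaving out a library in turn moved that p between 0.0261 and 0.181, and the call held in 3 of those 6 fits. Libraries held 22973245 to 31328415 estimated counts. In GATA6KO replicate 2 the median log2 ratio to the Control mean was -0.90 over chromosome 14, and in the other two GATA6KO libraries it was -0.09 and 0.04. The mitochondrial genome's own transcripts made up at most 1.88% of a Control library and 2.07% to 2.84% of a GATA6KO library. All 7 epithelial markers were present, at a sum of 9586 to 10396 CPM in Control and 6566 to 7687 CPM in GATA6KO. Cdh1, Krt8 and Krt18 among them fell, where 5.47% of all genes fell by edgeR. Those calls held in 3, 3 and 4 of the 6 fits without a library. Epcam, Krt19, Vil1 and Cdx2 were not called. All 7 were lower in every GATA6KO library than in any Control library, and groups did not overlap for 40.8% of all genes tested. The 7 fibroblast markers summed to at most 0.700 CPM and the 4 endothelial markers to at most 0.667 CPM in any library, with Lum at 0 in all 6. The 6 immune markers summed to 11.0 to 14.3 CPM in Control and 3.04 to 5.52 CPM in GATA6KO. Nearly all of that was Cd68, a lysosomal protein abundant in macrophages, while Ptprc, which marks all leukocytes, was at 0.197 and 0.209 CPM. The part of these shifts in the values of the carriers was not tested. In bulk libraries, fewer cells of a type and less RNA per cell cannot be told apart.

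Slc25a36 and Slc25a33 are the carriers known to bring pyrimidine nucleotides into mitochondria, and sequence before their starts is shown because the first fell and the second did not pass the test. The windows are the 250 bases before each start in RefSeq on GRCm38.p6, on the minus strand, read 5′ to 3′ towards the start. For Slc25a36 the 116 bases nearest the start lie inside the GENCODE gene model and are not shown, which leaves 134 bases at chr9:97111158-97111291. The window of Slc25a33 is at chr4:149774268-149774517. Capitals mark CACGTG, the E-box bound by MYC and related factors, searched on both strands.
Slc25a36: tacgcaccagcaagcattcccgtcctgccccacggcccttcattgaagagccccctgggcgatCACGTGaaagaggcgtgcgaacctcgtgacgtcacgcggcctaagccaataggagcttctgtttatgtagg
Slc25a33: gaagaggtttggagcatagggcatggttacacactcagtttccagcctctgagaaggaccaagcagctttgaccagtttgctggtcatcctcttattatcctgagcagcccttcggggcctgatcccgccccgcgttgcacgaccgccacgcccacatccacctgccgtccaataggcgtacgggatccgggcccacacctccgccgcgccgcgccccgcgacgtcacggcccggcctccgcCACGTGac
Both windows of 250 bases hold a single E-box, 187 bases before the start in Slc25a36 and 8 bases before it in Slc25a33. An E-box was in 8 of the 52 windows of the 41 carriers that RefSeq's table held (15.4%), and in 6.02% of all 32851 windows. Windows of Slc25a14 overlap, and the same E-box is counted at 54 and at 184 bases before their starts. Neither the window of Slc25a36 nor that of Slc25a33 held a GATA match. The letters searched were AGATAA or the same with T as its first base, G as its last or both, on either strand. Such a match was in 6 of the 52 windows (11.5%), those of Slc25a4, Slc25a5, Slc25a12, Slc25a28, Slc25a43 and Slc25a53, and in 26.5% of all windows. Of the other called carriers, the windows of Slc25a25 held no E-box and no GATA match, and RefSeq's table held no window of Slc25a32. A match is a run of letters in a window and was not tested as a site.

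The nucleotide and cofactor carriers held 2 of the 3 calls, with 1 of 8 tested higher and 1 lower. That was 25% of those tested, against 12.4% of all genes (6.92% higher and 5.47% lower). Slc25a36 (ENSMUSG00000032449, on mm10 with GENCODE M21 chromosome 9, 97074961 to 97111157, minus strand) measured 84.4, 88.3 and 95.3 CPM in Control replicates 1 to 3, against 41.6, 27.0 and 35.7 CPM in GATA6KO. Every GATA6KO library lay below every Control library, and the lowest was GATA6KO replicate 2. The mean in GATA6KO was 0.389 of that in Control (log2 fold change -1.36, SE 0.16, edgeR adjusted p = 0.00524). This was the largest decrease among the tested carriers. With each library left out in turn, its edgeR adjusted p stayed between 0.003 and 0.0369.

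Slc25a33, its close relative, was at 25.6, 28.2 and 27.6 CPM in Control against 26.8, 13.8 and 17.7 CPM in GATA6KO. GATA6KO replicate 1 lay among the Control libraries, while replicates 2 and 3 lay below them (log2 fold change -0.48, SE 0.24, edgeR adjusted p = 0.219). Slc25a33 made up 22.4% to 24.2% of the CPM of this pair in Control and 33.2% to 39.2% in GATA6KO, with no overlap of the groups. The log2 ratio of Slc25a33 to Slc25a36 was -1.71 ± 0.0713 in the Control libraries and -0.87 ± 0.207 in the GATA6KO libraries (SD, n = 3 each). The difference of 0.85 gave p = 0.1 in a 2-sided exact permutation test, the smallest that 3 against 3 libraries allow, and 0.333 after adjustment over 10 pairs of carriers.

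Slc25a32 (ENSMUSG00000022299, chromosome 15, 39091231 to 39112716, minus strand) measured 28.6, 28.0 and 22.6 CPM in Control replicates 1 to 3, against 47.0, 46.2 and 48.4 CPM in GATA6KO. The GATA6KO libraries lay close together and all above the Control libraries, of which replicate 3 was the lowest. The mean rose to 1.79 times that in Control (log2 fold change 0.84, SE 0.12, edgeR adjusted p = 0.0084). With each library left out in turn, its edgeR adjusted p ranged from 0.00916 to 0.0494.

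The other 5 members of this group did not pass. Slc25a51, which carries NAD, was at 88.8, 87.0 and 88.6 CPM in Control against 93.1, 80.3 and 79.2 CPM in GATA6KO, with GATA6KO on both sides of Control (log2 fold change -0.07, SE 0.09, edgeR adjusted p = 0.662). Slc25a17, a carrier of peroxisomes, was at 46.7, 52.6 and 50.5 CPM in Control against 55.8, 63.4 and 68.8 CPM in GATA6KO. All of its GATA6KO libraries lay above Control (log2 fold change 0.33, SE 0.11, edgeR adjusted p = 0.0942). Slc25a16 and Slc25a42, which are linked to coenzyme A, had log2 fold changes of 0.04 and 0.10.

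Of 6 tested enzymes that use the folate pool of mitochondria, 2 fell and 0 rose by edgeR, where 5.47% of all genes fell and 6.92% rose. Shmt2, the serine hydroxymethyltransferase of mitochondria, was at 292, 289 and 310 CPM in Control against 185, 112 and 171 CPM in GATA6KO (log2 fold change -0.93, SE 0.19, edgeR adjusted p = 0.026). Mthfd1l, which releases formate, was at 211, 219 and 222 CPM in Control against 179, 126 and 131 CPM in GATA6KO (log2 fold change -0.58, edgeR adjusted p = 0.0467). In both, every GATA6KO library lay below every Control library. Mthfd2, the dehydrogenase between them, went from 197 ± 12.5 to 93.1 ± 38.2 CPM (SD, n = 3 each; edgeR adjusted p = 0.0502) and did not pass. Neither did Aldh1l2, which oxidises formyl folate, with 85.1, 82.5 and 110 CPM in Control and 29.4, 1.61 and 4.30 CPM in GATA6KO (edgeR adjusted p = 0.0861). Leaving out Control replicate 1, 2 or 3 ended the calls of Shmt2 and Mthfd1l, at edgeR adjusted p of 0.0884 to 0.11 and 0.136 to 0.161. Mthfd1l was also not called without GATA6KO replicate 2 or 3 (0.0715 and 0.0971), with scaling to the library total (0.052) and with the replicate number as a block. Amt, a subunit of the glycine cleavage system, was at 4.47, 4.51 and 4.84 CPM in Control and 15.9, 5.97 and 13.9 CPM in GATA6KO, all above Control (log2 fold change 1.37, edgeR adjusted p = 0.0532), and did not pass. Gldc, of the same system, had 1 count in each Control library and 6, 47 and 16 counts in GATA6KO, and was not tested. At an unadjusted p under 0.05, edgeR had 5 of the 6, Amt higher and Shmt2, Mthfd1l, Mthfd2 and Aldh1l2 lower, against 31.7% of all genes. DESeq2 called the same 5 (22% of all genes), and limma-voom called the 4 that were lower (12.1%).

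**Figure D2:**
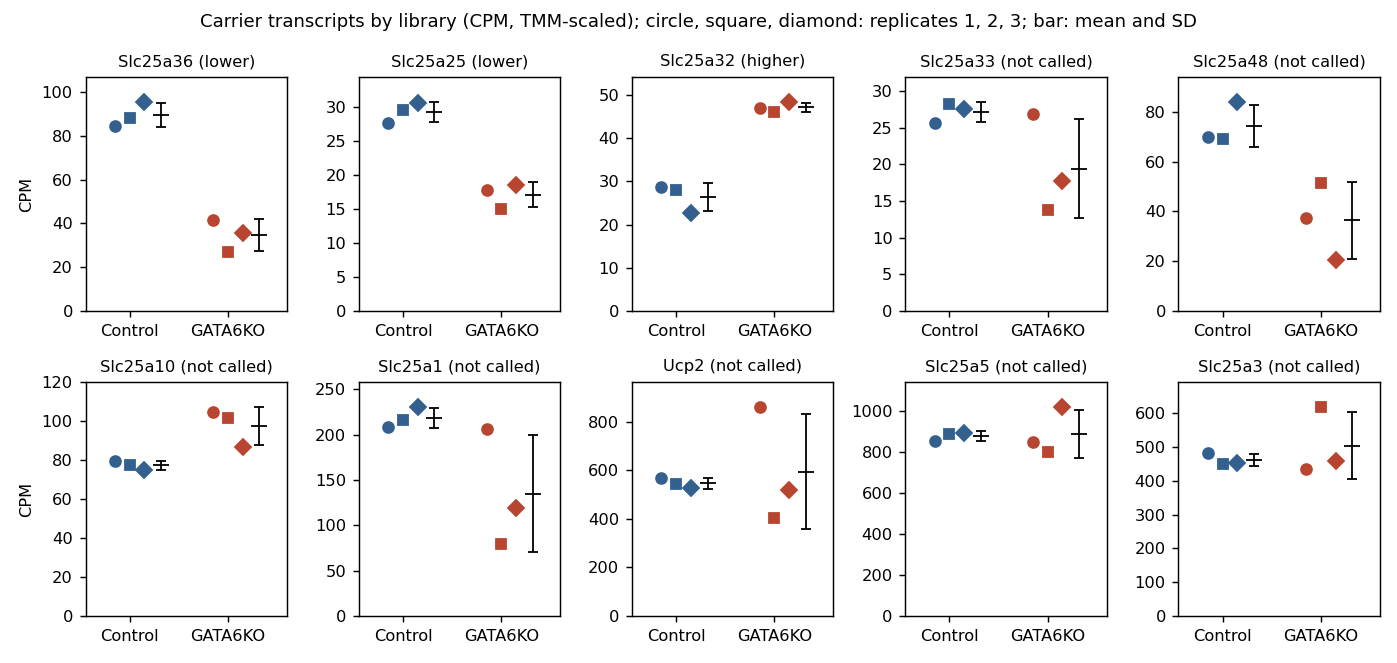
CPM of 10 carriers in each library, with circles, squares and diamonds for replicates 1, 2 and 3 and a bar for the mean and SD (n = 3). Slc25a36 and Slc25a25 lie lower and Slc25a32 higher in every GATA6KO library, while GATA6KO replicate 1 of Slc25a33 and Slc25a1 lies near Control and that of Ucp2 above it.

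Among the carriers of phosphate and of ATP-Mg, 1 of 4 tested fell and 0 rose, by edgeR as by DESeq2 and limma-voom, and 1 had an unadjusted p under 0.05. Of all genes, edgeR called 12.4%, DESeq2 22% and limma-voom 12.1%, and 31.7% had an unadjusted p under 0.05 by edgeR. Slc25a25 (ENSMUSG00000026819, chromosome 2, 32414487 to 32451445, minus strand) measured 27.7, 29.5 and 30.5 CPM in Control replicates 1 to 3, against 17.8, 15.02 and 18.5 CPM in GATA6KO. The groups did not overlap, and the GATA6KO mean was 0.586 of the Control mean (log2 fold change -0.77, SE 0.12, edgeR adjusted p = 0.0127). Leaving out Control replicate 1, 2 or 3 ended the call, at edgeR adjusted p of 0.064, 0.0752 and 0.0822 and log2 fold changes of -0.80, -0.78 and -0.75. Its exons overlap those of Naif1 on the other strand, and whether counting used strand is not given in the sources used here. Naif1 measured 8.43 ± 0.524 and 8.74 ± 1.22 CPM. Other carriers overlap genes on the other strand too, among them Slc25a10, Slc25a11, Slc25a33, Slc25a37, Slc25a46, Mpc1 and Ucp2.

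Slc25a24, a relative of Slc25a25 with the same exchange, was at 174, 179 and 180 CPM in Control against 127, 190 and 129 CPM in GATA6KO, where replicate 2 lay above and the other two below Control (log2 fold change -0.26, SE 0.17, edgeR adjusted p = 0.325). Without GATA6KO replicate 2 it was called, at a log2 fold change of -0.47 (edgeR adjusted p = 0.014). The log2 ratio of Slc25a24 to Slc25a25 was 2.60 in Control and 3.09 in GATA6KO, without overlap. Its exact permutation p was 0.1, the smallest possible, and 0.333 over the 10 pairs. Slc25a23, the third of this kind, measured 15.1 ± 1.91 and 14.4 ± 4.63 CPM. Slc25a3, the phosphate carrier that feeds ATP synthase, was at 483, 451 and 453 CPM in Control against 434, 618 and 460 CPM in GATA6KO. Only GATA6KO replicate 2 lay well outside the Control range (log2 fold change 0.12, SE 0.15, edgeR adjusted p = 0.601).

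The ADP/ATP carriers, which export the ATP made in the matrix, did not pass. Slc25a5 (ENSMUSG00000016319, chromosome X, 36795651 to 36798807, plus strand) was at 851, 886 and 894 CPM in Control against 847, 798 and 1019 CPM in GATA6KO. The groups overlapped (log2 fold change 0.02, SE 0.12, edgeR adjusted p = 0.936). Slc25a4, the form abundant in heart and muscle, was at 48.8, 55.5 and 59.1 CPM in Control against 50.2, 66.2 and 59.1 CPM in GATA6KO (log2 fold change 0.10, SE 0.13, edgeR adjusted p = 0.630). It made up 5.42% to 6.20% of the CPM of the pair in Control and 5.48% to 7.66% in GATA6KO. Slc25a31, the form of germ cells, had 1 count in all. Near-identical copies such as processed pseudogenes could share reads with these genes. EdgeR, DESeq2 and limma-voom called 0 of the 2 tested, against 12.4%, 22% and 12.1% of all genes. An unadjusted p under 0.05 was found for 0 of the 2, against 31.7% of all genes by edgeR.

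Per kilobase of annotated exon, Slc25a5 was the most abundant carrier in both groups, at 533 CPM per kb in Control and 539 in GATA6KO. The next in Control were the citrate carrier Slc25a1 (101 CPM per kb), Slc25a3 (83.3), Ucp2 (78.3) and the glutathione carrier Slc25a39 (73.3), and over the Control libraries the range of Ucp2 overlapped those of Slc25a3 and of Slc25a39. In GATA6KO, Slc25a1 was rank 4 of the 52, at 62.4 CPM per kb, with Slc25a39 next to it at 59.7. The order is approximate, since the length is the union of all annotated exons of a gene. Slc25a36 was rank 20 in Control and rank 28 in GATA6KO (9.31 and 3.62 CPM per kb), and Slc25a32 was rank 28 and rank 19 (4.34 and 7.76). All carriers together summed to 3742 to 3810 CPM in Control and to 3928, 3415 and 3568 CPM in GATA6KO replicates 1 to 3.

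**Figure D3:**
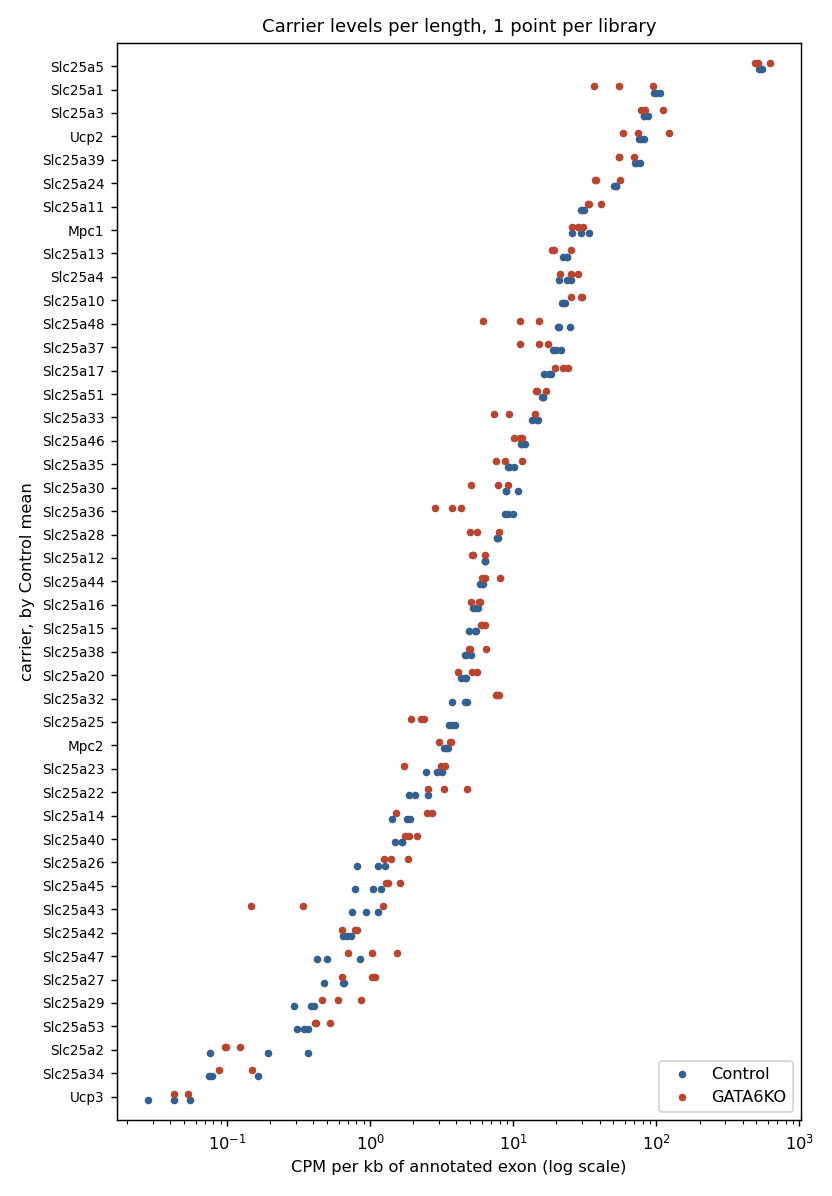
CPM per kb of annotated exon on a log axis, 1 point per library, for carriers with a Control mean above 0.02 CPM per kb, ordered by the Control mean. Points at 0 are not drawn. Slc25a5 stands apart at the top, and the red points of Slc25a36, Slc25a25 and Slc25a48 lie left of the blue ones.

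The subunits of the pyruvate carrier did not pass. Mpc1 was at 53.7, 62.3 and 69.9 CPM in Control against 58.7, 53.9 and 63.6 CPM in GATA6KO (log2 fold change -0.08, SE 0.12, edgeR adjusted p = 0.701), and Mpc2 measured 24.9 ± 0.790 and 25.2 ± 2.69 CPM. All GATA6KO libraries of Mpc1 lay within the Control range. By edgeR, DESeq2 and limma-voom 0 of the 2 were called, against 12.4%, 22% and 12.1% of all genes. The 2 subunits had 0 at an unadjusted p under 0.05, against 31.7% of all genes by edgeR. Of 15 enzymes of pyruvate and citrate, 1 rose and 0 fell by edgeR, where 6.92% of all genes rose and 5.47% fell. The gene that rose was Pdk4, a kinase that switches pyruvate dehydrogenase off. It was at 0.657, 0.555 and 0.167 CPM in Control and 3.11, 5.08 and 2.43 CPM in GATA6KO. Its level was low in both groups (log2 fold change 2.95, SE 0.55, edgeR adjusted p = 0.02), and the call was lost without Control replicate 1, 2 or 3 (edgeR adjusted p = 0.0672 to 0.0879). DESeq2 called 4 of the 15, against 22% of all genes, and limma-voom 1, against 12.1%. Of the 15, 3 had a log2 fold change above 0, against 51.9% of all genes. Among the other 12 was citrate synthase Cs (464 to 374 CPM, edgeR adjusted p = 0.0833).

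Of the di- and tricarboxylate carriers 0 of 3 tested were called by edgeR, against 12.4% of all genes. An unadjusted p under 0.05 was found for 1 of them, against 31.7% of all genes. All 3 had groups that did not overlap, as had 40.8% of all genes tested. Slc25a1, which exports citrate for lipid synthesis, was at 208, 216 and 231 CPM in Control against 206, 79.8 and 119 CPM in GATA6KO (log2 fold change -0.69, SE 0.32, edgeR adjusted p = 0.186). GATA6KO replicate 1 lay just under Control and the other two far under it, and without that library the log2 fold change was -1.13 (edgeR adjusted p = 0.0119). Slc25a10, which exchanges malate and succinate for phosphate, was at 79.7, 77.3 and 75.1 CPM in Control against 105, 102 and 86.7 CPM in GATA6KO (log2 fold change 0.34, SE 0.10, edgeR adjusted p = 0.0699). DESeq2 called it (adjusted p = 0.0236), 1 of the 3, and limma-voom called 0, against 22% and 12.1% of all genes. Slc25a11, the oxoglutarate-malate carrier, was at 63.3, 64.0 and 66.1 CPM in Control against 86.7, 71.7 and 70.8 CPM in GATA6KO, again all above Control (log2 fold change 0.24, SE 0.11, edgeR adjusted p = 0.166). Slc25a21 was listed at 0 in all 6 libraries.

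Of the aspartate and glutamate carriers, Slc25a12 and Slc25a13 run the malate-aspartate shuttle with Slc25a11. EdgeR and limma-voom called 0 of the 3 tested in this group, against 12.4% and 12.1% of all genes. By edgeR 1 had an unadjusted p under 0.05, against 31.7% of all genes. DESeq2 called 1, against 22% of all genes. Slc25a13 was at 89.3, 84.9 and 89.8 CPM in Control against 96.4, 73.5 and 71.0 CPM in GATA6KO, on both sides of Control (log2 fold change -0.13, SE 0.13, edgeR adjusted p = 0.531). Slc25a12 measured 46.3 ± 0.158 and 41.0 ± 4.76 CPM. Slc25a22, the glutamate carrier, was at 15.1, 11.1 and 12.3 CPM in Control against 15.2, 28.3 and 19.7 CPM in GATA6KO. Its GATA6KO replicate 1 was level with the highest Control library (log2 fold change 0.72, SE 0.25, edgeR adjusted p = 0.105).

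Beside these carriers, an enzyme of aspartate and one of glutamate fell. Got1, the aspartate aminotransferase of the cytosol, was at 104, 103 and 105 CPM in Control against 69.3, 49.3 and 56.9 CPM in GATA6KO (log2 fold change -0.83, SE 0.13, edgeR adjusted p = 0.0128). It was the 1 of 6 shuttle enzymes that fell, and 0 rose, where 5.47% of all genes fell and 6.92% rose. With Control replicate 1, 2 or 3 left out it was no longer called, at edgeR adjusted p of 0.0643, 0.0571 and 0.0673. Glud1, glutamate dehydrogenase, was at 197, 200 and 208 CPM in Control against 125, 104 and 122 CPM in GATA6KO (log2 fold change -0.79, SE 0.10, edgeR adjusted p = 0.00571). It was the 1 of 7 tested enzymes of ornithine, proline and glutamate that fell, with 0 higher (all genes 5.47% and 6.92%). Glud1 was called without each library in turn. Glud1 lies on chromosome 14. Without GATA6KO replicate 2, in which that chromosome was low, its log2 fold change was -0.71 (edgeR adjusted p = 0.00503).

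Of the carriers of carnitine, amino acids and methyl donors, edgeR called 0 of 9 tested, against 12.4% of all genes. It had 2 at an unadjusted p under 0.05, against 31.7% of all genes. DESeq2 called 1 and limma-voom 0, against 22% and 12.1% of all genes. Of the 9, 8 had a log2 fold change above 0, against 51.9% of all genes. The exception was Slc25a48, known as a choline carrier and the highest of them in CPM. It was at 69.9, 69.0 and 83.8 CPM in Control against 37.3, 51.3 and 20.6 CPM in GATA6KO, so that every GATA6KO library lay below Control and they differed widely from each other (log2 fold change -1.03, SE 0.31, edgeR adjusted p = 0.0729). DESeq2 called it (adjusted p = 0.00785), as did limma-voom with weights per group (adjusted p = 0.0321) and edgeR without GATA6KO replicate 2 (adjusted p = 0.0241). The ornithine carrier Slc25a15 measured 29.6 ± 1.69 and 34.4 ± 1.31 CPM, the carnitine-acylcarnitine carrier Slc25a20 22.0 ± 0.956 and 23.8 ± 3.56 CPM, and the carrier Slc25a44, known for branched-chain amino acids, 21.5 ± 0.598 and 24.3 ± 4.07 CPM. Slc25a38, known for glycine, measured 13.1 ± 0.725 and 14.9 ± 2.35 CPM. Slc25a26, Slc25a29, Slc25a45 and Slc25a47 were below 10 CPM in every library, with log2 fold changes of 0.48, 0.82, 0.48 and 0.88 and edgeR adjusted p of 0.149 to 0.245. Slc25a2 had at most 15 counts and was not tested. The 5 carnitine acyltransferases, which make the cargo of Slc25a20, had 0 calls by edgeR, DESeq2 and limma-voom, against 12.4%, 22% and 12.1% of all genes. They had 0 at an unadjusted p under 0.05, against 31.7% of all genes by edgeR. Cpt1a, the highest of the 5 in CPM, stood at 71.9 CPM in Control and 70.8 in GATA6KO.

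Iron and glutathione carriers had 0 of 4 called by edgeR, DESeq2 and limma-voom, against 12.4%, 22% and 12.1% of all genes. By edgeR 2 had an unadjusted p under 0.05, against 31.7% of all genes. Slc25a37, the mitoferrin of red cell precursors, was at 130, 114 and 120 CPM in Control against 105, 66.7 and 91.2 CPM in GATA6KO, all below Control (log2 fold change -0.47, SE 0.17, edgeR adjusted p = 0.116). It lies on chromosome 14, and without GATA6KO replicate 2 its log2 fold change was -0.30 (edgeR adjusted p = 0.107). Slc25a28, the other mitoferrin, measured 28.9 ± 0.467 and 22.96 ± 5.79 CPM. Slc25a39, which imports glutathione, was at 200, 196 and 210 CPM in Control against 192, 152 and 150 CPM in GATA6KO (log2 fold change -0.30, SE 0.12, edgeR adjusted p = 0.142). Its relative Slc25a40 went the other way, from 13.5 ± 0.804 to 15.9 ± 1.53 CPM (edgeR adjusted p = 0.251). The log2 ratio of Slc25a39 to Slc25a40 was 3.90 in Control and 3.35 in GATA6KO, without overlap (exact permutation p = 0.1, the smallest possible, and 0.333 over the 10 pairs). Slc25a33 to Slc25a36 and Slc25a24 to Slc25a25 had the same p. In the rest of the 10 pairs the groups overlapped.

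**Figure D4:**
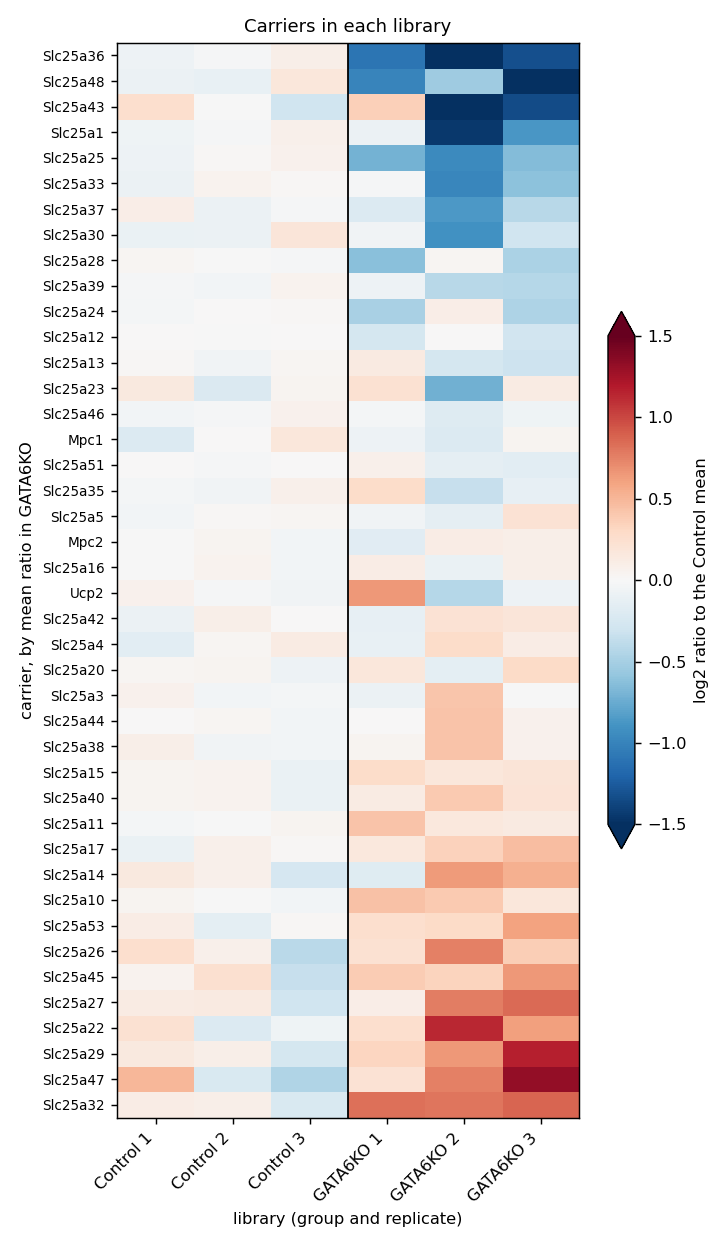
Log2 ratio of 42 tested carriers to their Control means in each library (columns), ordered by the mean ratio in GATA6KO, with the colour scale ending at -1.5 and 1.5. Slc25a36, Slc25a25 and Slc25a48, which edgeR did not call, are blue and Slc25a32 is red in all 3 GATA6KO columns. Slc25a43, Slc25a1 and Slc25a33 are blue in GATA6KO replicates 2 and 3 and pale in replicate 1.

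The uncoupling proteins and their relatives had 0 of 4 called by edgeR, DESeq2 and limma-voom, against 12.4%, 22% and 12.1% of all genes. They had 0 at an unadjusted p under 0.05, against 31.7% of all genes by edgeR. Ucp2, the widely expressed member, was at 571, 543 and 528 CPM in Control against 862, 406 and 520 CPM in GATA6KO. GATA6KO replicate 1 was the highest of the 6 libraries and GATA6KO replicate 2 the lowest (log2 fold change 0.12, SE 0.26, edgeR adjusted p = 0.782). Slc25a30 was at 40.4, 40.9 and 49.2 CPM in Control against 42.0, 23.2 and 35.4 CPM in GATA6KO, and its lowest library was GATA6KO replicate 2 (log2 fold change -0.38, edgeR adjusted p = 0.282). It lies on chromosome 14, and the part of that chromosome's low level in this library was not tested. Slc25a14 and Slc25a27 were below 10 CPM in every library (log2 fold changes 0.38 and 0.63, edgeR adjusted p = 0.389 and 0.196). Ucp1, the heat-producing form of brown fat, had 1 count in all, and Ucp3, known from muscle, at most 5 counts in a library.

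Of the other and orphan carriers, 0 of 4 tested were called by edgeR, DESeq2 and limma-voom, against 12.4%, 22% and 12.1% of all genes. They had 0 at an unadjusted p under 0.05, against 31.7% of all genes by edgeR. Slc25a46, a protein of the outer membrane tied to mitochondrial shape, was at 61.1, 62.2 and 65.6 CPM in Control against 61.9, 55.1 and 60.1 CPM in GATA6KO (log2 fold change -0.09, SE 0.09, edgeR adjusted p = 0.503). Slc25a35 measured 35.1 ± 1.74 and 34.1 ± 7.61 CPM, and Slc25a53 measured 2.70 ± 0.256 and 3.56 ± 0.497 CPM. Slc25a43 was at 2.02, 1.66 and 1.33 CPM in Control against 2.17, 0.262 and 0.600 CPM in GATA6KO, where replicates 2 and 3 lay below Control and replicate 1 above it. In all, 9 carriers were not tested. Slc25a18, Slc25a21, Slc25a41 and Slc25a54 were at 0 in all 6 libraries, where 3 counts, the limit that a count of 0 allows, equal 0.0984 to 0.131 CPM (counting error only). The other 5 not tested, Slc25a2, Slc25a31, Slc25a34, Ucp1 and Ucp3, had at most 15 counts in any library.

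Genes that place carriers in the membrane did not pass. This import route runs from the outer membrane receptor Tomm70a through the small TIM chaperones to the inner membrane insertase Timm22. Of its 13 genes, edgeR, DESeq2 and limma-voom called 0, against 12.4%, 22% and 12.1% of all genes. By edgeR 2 of the 13 had an unadjusted p under 0.05, against 31.7% of all genes. Tomm70a, the highest of the 13 in CPM, measured 267 and 268 CPM (log2 fold change 0.0038, SE 0.11, edgeR adjusted p = 0.985). Of 15 channels, divergent carriers, sideroflexins and calcium uniporter genes, 1 rose and 1 fell, where 6.92% of all genes rose and 5.47% fell. Mtch1, a carrier-like protein of the outer membrane, was at 82.6, 79.8 and 84.6 CPM in Control against 128, 114 and 121 CPM in GATA6KO (log2 fold change 0.56, SE 0.08, edgeR adjusted p = 0.0104). Mcu, the pore of the calcium uniporter, was at 120, 123 and 124 CPM in Control against 82.2, 101 and 93.5 CPM in GATA6KO (log2 fold change -0.41, SE 0.10, edgeR adjusted p = 0.0403). The groups did not overlap in either gene. Both calls were lost without Control replicate 1, 2 or 3 (edgeR adjusted p = 0.064 to 0.0795 for Mtch1 and 0.153 to 0.178 for Mcu). That of Mcu was also lost without GATA6KO replicate 3 (0.0609), with scaling to the library total (0.0797), with no filter (0.0585) and with the replicate number as a block.

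Ppargc1a, a coactivator that drives mitochondrial biogenesis, was the 1 of 9 regulators that fell, with 0 higher (all genes 5.47% and 6.92%). It was at 19.8, 19.5 and 21.1 CPM in Control against 7.76, 11.0 and 9.87 CPM in GATA6KO, with no overlap (log2 fold change -1.08, SE 0.16, edgeR adjusted p = 0.0105). It was not called when Control replicate 1, 2 or 3 was left out, at edgeR adjusted p of 0.064, 0.0617 and 0.0749. Tfam, the packaging factor of the mitochondrial genome, measured 62.4 and 68.6 CPM (edgeR adjusted p = 0.515). Over all 8 partner lists, 2 of 76 tested genes rose and 6 fell, a called share of 10.5% against 12.4% of all genes, and their median log2 fold change was -0.04.

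**Figure D5:**
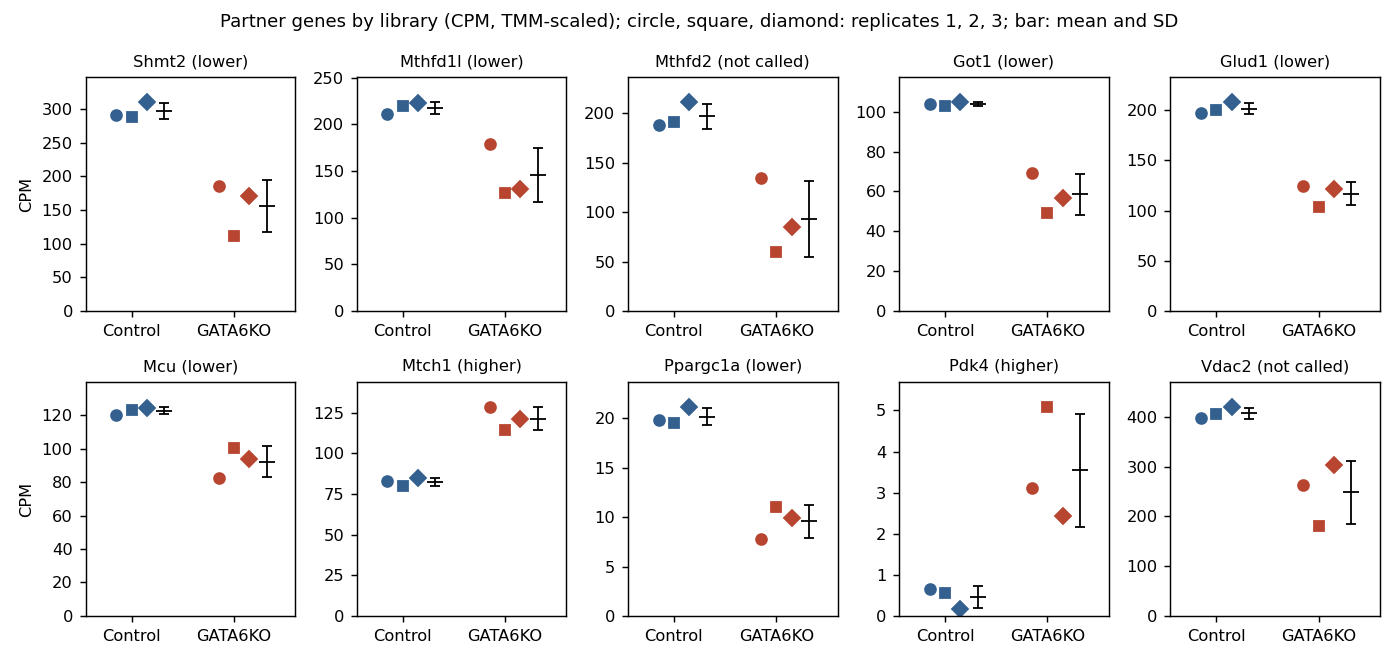
CPM of 10 partner genes in each library, with circles, squares and diamonds for replicates 1, 2 and 3 and a bar for the mean and SD (n = 3). Shmt2, Mthfd1l, Got1, Glud1, Mcu and Ppargc1a lie lower and Mtch1 and Pdk4 higher in every GATA6KO library, and Mthfd2 and Vdac2 lie lower without passing the test. Vdac2 lies on chromosome 14, and its lowest library is GATA6KO replicate 2.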

How the data were processed

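RNA selected for poly(A) was sequenced from 6 AKP organoid libraries made to keep strand, per the labels' protocols. The deposited table gives estimated counts for each gene as whole numbers without any scaling. The submitters' processing notes name Salmon 1.3.0 and mm10, and do not say what each was used for. No source used here gives the annotation, the summing to genes or how strand was used. Estimated counts split reads between similar transcripts, which leaves the values of near-identical genes dependent on the split.

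GENCODE M21, on the assembly of mm10, matched 54166 of the 54418 identifiers and gave symbols, coordinates and exon lengths. Groups came from the sample titles. The filter was edgeR's filterByExpr, with a minimum of 10 counts and 15 in total, and 14714 genes passed. They were scaled by TMM, tested with edgeR's quasi-likelihood test (robust estimation) and adjusted by Benjamini-Hochberg over all genes, at 0.05. An SE is the log2 fold change over the square root of F. Ratios of related carriers had a pseudocount of 0.1 CPM. Versions were edgeR 4.0.16, DESeq2 1.42.0 and limma 3.58.1 on R 4.3.3. The fit was tested on data simulated with the same spread in both groups. That test does not cover the unequal spread here, where the median log2 SD over all genes was 0.0949 in Control and 0.279 in GATA6KO.

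Members, partner lists and pairs were chosen with earlier results of these data known. Called carriers and partner genes are given in full, as are other carriers of at least 50 CPM or the highest of their group. Genes named beyond that were chosen after their values were seen. Alternatives were other scalings, tools and filters, a replicate block and each library left out. A carrier that was tested and is in the counts is not reported here by name.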

Additional observations from a re-analysis of the deposited data

How the results depend on the processing

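Slc25a36 and Slc25a32 kept their direction and their call under every alternative run, and Slc25a25 under all but those without Control replicate 1, 2 or 3. Over those alternatives the log2 fold changes ranged from -1.51 to -1.21 for Slc25a36, from 0.73 to 0.91 for Slc25a32 and from -0.83 to -0.69 for Slc25a25. The count of carriers that rose, 1, was 2 with scaling to the library total and 3 with DESeq2, and 1 to 4 with each library left out. The count that fell, 2, ranged from 1 to 8 with each library left out. Of all genes, 1823 were called, against 3238 with DESeq2, 827 with the replicate block and 332 to 4360 with each library left out. Partner genes that rose, 2, numbered 4 with DESeq2 and with no filter, and 0 to 10 with each library left out. The 0 came from edgeR without Control replicate 1, 2 or 3, with 5, 5 and 4 at an unadjusted p under 0.05. Partner genes that fell, 6, numbered 14 with DESeq2, 10 with limma-voom and weights per group, and 1 to 17 with each library left out. The shares over all genes moved as well. EdgeR had 6.92% higher and 5.47% lower, and DESeq2 11.6% and 10.4%. With each library left out they ranged from 1.33% to 14.8% higher and from 0.855% to 14% lower. All genes called numbered 1980 with weights per group and 1811 with no filter. The cause of these shifts was not tested.

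The sign was followed in the called carriers and in others of at least 50 CPM or the highest of their group. Among these it changed only in carriers that were not called. With scaling to the library total Slc25a51 was at 0.0055. With each library left out, Mpc1 ranged from -0.16 to 0.0065, Slc25a3 from -0.049 to 0.22, Slc25a5 from -0.094 to 0.089 and Ucp2 from -0.24 to 0.34. Likewise the difference in log2 ratio ranged from -0.078 to 0.18 for Slc25a4 to Slc25a5, from -0.18 to 0.030 for Mpc1 to Mpc2, from -0.19 to 0.14 for Slc25a12 to Slc25a13, from -0.25 to 0.41 for Slc25a28 to Slc25a37 and from -0.10 to 0.66 for Slc25a23 to Slc25a24.

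The labels do not say whether equal replicate numbers pair the samples. Deviations from the group means correlated at -0.01, 0.074 and -0.092 for equal numbers 1 to 3, and at -0.148 to 0.156 for unequal numbers. With 3 libraries per group, these values cannot settle whether the samples were paired. Of the called carriers and partner genes, the block ended the calls of Mthfd1l and Mcu (edgeR adjusted p = 0.0829 and 0.0937) and no other call.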
